A study of Homo sapiens with 14 samples.

Results

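LTR6A, LTR6B and HERVS71-int are the names under which the copies of 1 old human endogenous retrovirus are listed, and the copies described here are all integrants of the transposable element (TE) count tables whose name holds any of the 3. They number 409 of 4570939 integrants and fall at 367 loci when copies within 10 kb of each other are joined. HERVS71-int is the internal part of the virus, and LTR6A and LTR6B are 2 forms of the long terminal repeat (LTR) that flanks it. Of the 409 copies, 217 were solo LTR6A, 99 were solo LTR6B, 78 held an LTR with internal sequence, 14 were internal sequence alone, and 1 joined LTR6A with LTR6B. The rule takes members by name alone and uses no measured value, although the family was picked with earlier results of these data known.

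Reads were counted in 12 bulk RNA-seq libraries of human embryonic stem cells (hESC) and their derivatives, for which the labels name the line H9. The groups were 2 libraries of undifferentiated hESC (hESC), 3 of definitive endoderm carrying dCAS9-KRAB without a guide (DE_ctl), 3 of endoderm carrying dCAS9-KRAB with the LTR5 sgRNA (DE_CRISPRi), 2 of foregut without it (FG_ctl) and 2 of foregut with it (FG_CRISPRi). dCAS9-KRAB is a cutting-dead Cas9 fused to a repressor domain, and the sgRNA was designed for the LTR5 family of another retrovirus, HERVK, not for LTR6. Endoderm was made over 3 days with 100 ng/ml Activin A, with the GSK3 inhibitor CHIR-99021 at 5 μM on the first day and 0.5 μM on the second, and foregut was made by 3 further days of culture. Foregut libraries were grouped by their titles and source names, although their status labels read "hESC" for FG_ctl and without sgRNA for FG_CRISPRi. The protocol of the foregut samples names H1 as well as H9, and these samples were a separate deposit, so that tissue and deposit cannot be told apart. No label says whether libraries of a group came from separate cultures, so p-values measure the spread between these libraries, which may be technical.

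Depth was 11583063 to 37152434 reads on genes per library, and TE reads came to 1.21 to 2.01% of that number. Values below are reads per 1000000 gene reads (RPM), and 1 read was worth 0.0269 to 0.0863 RPM. Marker genes of endoderm and foregut followed the tissue labels. All 8 definitive endoderm markers were higher in DE_ctl than in hESC, with a sum of 5464 to 6068 RPM against 31.2 to 42.4 RPM, and the 8 foregut markers summed to 2165 to 2985 RPM in FG_ctl against 8.80 to 25.6 RPM in DE_ctl. Of the 6 mesoderm markers, 5 were also higher in DE_ctl than in hESC (sum 45.8 to 70.2 RPM against 0.931 to 1.19 RPM). Of the other lists, 1 of 6 pluripotency markers was higher and 3 lower, 2 of 4 neural markers higher and 1 lower, 2 of 4 trophoblast and amnion markers higher and 1 lower, and 0 of 2 blood and endothelium markers tested were called. Among all genes tested 26% were called and 14.2% were higher. The sum of the pluripotency markers did not fall, at 967 to 1399 RPM in hESC and 1204 to 1784 RPM in DE_ctl. For the target of the sgRNA, integrants named LTR5B summed to 5.37 ± 0.291 RPM (SD, n = 3) in DE_ctl and 2.63 ± 0.991 RPM in DE_CRISPRi, and those named LTR5_Hs to 17.8 to 19.2 RPM and 10.6 to 14.1 RPM. Integrants named LTR5A, another name of the family, went the other way, at 39.05 to 62.77 RPM in DE_ctl and 88.7 to 110.4 RPM in DE_CRISPRi. Foregut libraries were noisy at single integrants. Of the integrants with at least 10 reads in a library, 75.5% had reads in only 1 of the 2 FG_ctl libraries and 83.4% in only 1 of the 2 FG_CRISPRi libraries, against 5.00% in hESC and 1.93 to 3.28% between pairs of DE_ctl libraries.

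HERVS71, also known as HERV-T, is a class I endogenous retrovirus related to the gammaretroviruses, which entered the germline of primate ancestors. A complete provirus carries an LTR at each end of the viral genes. The LTR at the start acts as promoter, and the one at the end gives the signal to stop the transcript, while a solo LTR is what remains after the LTRs of a provirus recombine. Directly after the first LTR lies the primer binding site, the stretch of viral RNA that pairs with the 3′ end of a cellular tRNA to prime reverse transcription, and in this family that tRNA is one for threonine. The envelope of HERV-T used SLC16A1, a monocarboxylate transporter, as its receptor. In adult and embryonic cells, LTRs of such families are commonly silenced by KRAB zinc finger proteins, the corepressor TRIM28 and DNA methylation, and some serve as promoters or enhancers for transcription factors of a given tissue.

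The first bases of the LTR at the start of a provirus are shown for a provirus on chromosome 18 of GRCh37, the locus with the highest mean level in DE_ctl and in foregut. The stretch lies at chr18:47926821-47927120 on the plus strand and runs 5′ to 3′ on the strand of the provirus. It is in lower case throughout, as it holds neither AGATAA, a form read by GATA factors, nor TGTTTAC, a form read by FOX factors, on either strand. Other forms of these sites were not searched, so a site of another form may be present.
Chromosome 18 provirus, LTR6A: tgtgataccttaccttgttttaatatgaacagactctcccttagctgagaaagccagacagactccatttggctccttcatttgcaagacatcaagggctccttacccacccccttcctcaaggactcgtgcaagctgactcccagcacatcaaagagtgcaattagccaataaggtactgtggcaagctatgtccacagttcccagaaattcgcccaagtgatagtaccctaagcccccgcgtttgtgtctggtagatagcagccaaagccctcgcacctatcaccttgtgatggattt

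The 5 proviruses with most reads in endoderm, on chromosome 18, within DET1, over the end of TNFSF14, within PLSCR2 and on chromosome 19, are shown at the junction of the first LTR with the internal part, where 20 bases of the LTR are followed by the 18 bases of the primer binding site in capitals. These junctions lie at chr18:47927359-47927396, chr15:89081856-89081893, chr19:6661206-6661243, chr3:146129373-146129410 and chr19:20473370-20473407.
Chromosome 18 provirus junction: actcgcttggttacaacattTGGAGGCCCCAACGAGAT
DET1 provirus junction: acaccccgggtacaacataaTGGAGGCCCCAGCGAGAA
TNFSF14 provirus junction: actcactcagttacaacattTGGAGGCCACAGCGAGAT
PLSCR2 provirus junction: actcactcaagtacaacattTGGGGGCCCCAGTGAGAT
Chromosome 19 provirus junction: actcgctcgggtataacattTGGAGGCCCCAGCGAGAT

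The common form of the site was taken as TGGAGGCCCCAGCGAGAT. It holds the most frequent base at each position over 21 stretches that overlap members and are annotated as miRNA genes. It was intact in the chromosome 19 provirus, differed at 1 base in the chromosome 18, DET1 and TNFSF14 proviruses, and differed at 2 bases in the PLSCR2 provirus. Over the whole family, 45 integrants held the site with at most 3 mismatches. It also lies under annotation: 29 members overlap an exon of a gene annotated as a miRNA, among them the starts of the chromosome 18, DET1 and chromosome 19 proviruses. Those miRNA genes held 0 or 1 read in every library, so the reads described below were not assigned to them.

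A close relative of the chromosome 18 LTR was without reads. The LTR nearest to it, a solo LTR6A on chromosome 3 at 90.8% identity over the first 300 bases, had 0 reads in the 12 libraries.

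AGATAA on either strand was found in 102 of 185 LTR6A starts (55.1%) and 20 of 115 LTR6B starts (17.4%), beside 10.3% of 35116 RefSeq promoters of the same 300-base length (GRCh38.p14). TGTTTAC was in 11.9% of LTR6A starts, 22.6% of LTR6B starts and 3.42% of promoters. The SOX letters ACAAT were in 30.8%, 11.3% and 27.4%, and the T-box letters GGTGTG in 7.57%, 1.74% and 16.8%. Only exact matches to these letters were counted, and other forms of the sites were not. Members with reads in endoderm are set beside the others by count, with no test. Among LTRs with internal sequence, AGATAA was in 3 of 6 LTR6A starts of members that were higher in endoderm and 7 of 14 of the others, and in 3 of 10 against 12 of 17 for LTR6B. For TGTTTAC the counts were 1 of 6 against 2 of 14 for LTR6A and 3 of 10 against 5 of 17 for LTR6B.

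In hESC the whole family gave few reads, and in endoderm its reads rose to several percent of all TE reads. The members summed to 7.52 and 9.04 RPM in the hESC libraries and to 848, 869 and 979 RPM in the DE_ctl libraries. They held 0.0486 to 0.0580% of TE reads in hESC and 5.67 to 8.09% in DE_ctl. The sum was 1475, 1139 and 1328 RPM in the DE_CRISPRi libraries, 508 and 288 RPM in FG_ctl, and 98.6 and 147 RPM in FG_CRISPRi. In a bulk library, fewer cells with a transcript and less of it per cell cannot be told apart.

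Taken by name, integrants named HERVS71-int summed to 7.26 RPM in hESC and 891 ± 70.6 RPM (SD, n = 3) in DE_ctl, those named LTR6A to 3.34 and 421 ± 75.3 RPM, and those named LTR6B to 4.94 and 382 ± 76.6 RPM. Proviruses count under each of their names, so the 3 sums share reads. All 3 names were higher in DE_ctl by edgeR's quasi-likelihood test over 1065 subfamily names, with log2 fold changes of 7.02 (SE 0.288, adjusted p = 1.25e-13) for HERVS71-int, 7.05 (SE 0.311, adjusted p = 2.74e-13) for LTR6A and 6.36 (SE 0.317, adjusted p = 2.06e-12) for LTR6B, where 18.4% of names were called in either direction.

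**Figure D1:**
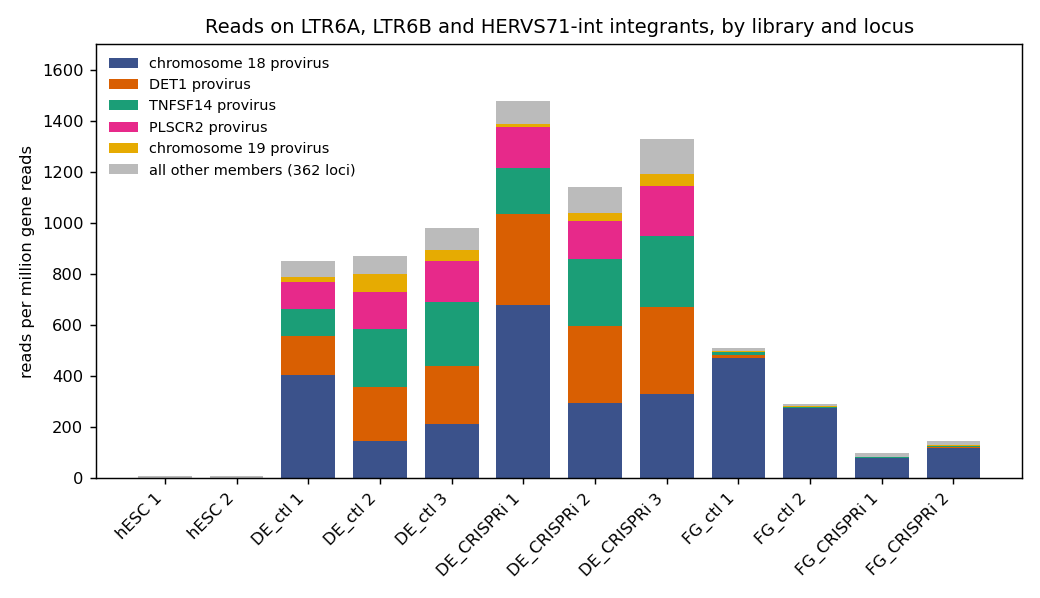
Summed reads of the 409 members in each of the 12 libraries (RPM, log axis), by group. The hESC libraries sit at 7.52 and 9.04 RPM, every endoderm library at 848 RPM or more, and the FG_CRISPRi libraries, at 98.6 and 147 RPM, below both FG_ctl libraries.

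Most copies gave no read at all. Of the 409 members, 283 had 0 reads in all 12 libraries, 126 had at least 1 read, and 85 reached 3 reads in a library. Among those with a read the total over the 12 libraries had a median of 11 and a range of 1 to 63965. With at least 3 reads as the limit, 42 members reached it in a DE_ctl library and in no hESC library, 2 in an hESC library and in no DE_ctl library, and 14 in both. Reads that fit several copies were dropped at alignment, so copies with near-identical sequence elsewhere are undercounted.

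Nearly all of these reads came from proviruses, not from solo LTRs. In DE_ctl the 78 LTRs with internal sequence held 796 ± 49.2 RPM (SD, n = 3), or 88.6% of the members' reads, and the 14 pieces of internal sequence held 95.8 ± 40.4 RPM, or 10.5%. The 217 solo LTR6A held 3.32 ± 1.45 RPM (0.376%) and the 99 solo LTR6B 4.17 ± 0.938 RPM (0.463%). Per kilobase the proviral parts also stood above the solo LTRs. The level in DE_ctl was 1.84 RPM per kilobase (RPKM) for LTRs with internal sequence, 15.2 RPKM for internal pieces, 0.0332 RPKM for solo LTR6A and 0.0818 RPKM for solo LTR6B. The level of the internal pieces was that of few copies. Only 4 of the 14 had a read in any library. The 2 with enough reads for a test between DE_ctl and hESC were inner pieces of the TNFSF14 provirus. In hESC the LTRs with internal sequence held 7.26 RPM, solo LTR6A 0.759 RPM, solo LTR6B 0.260 RPM and the internal pieces 0.

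**Figure D2:**
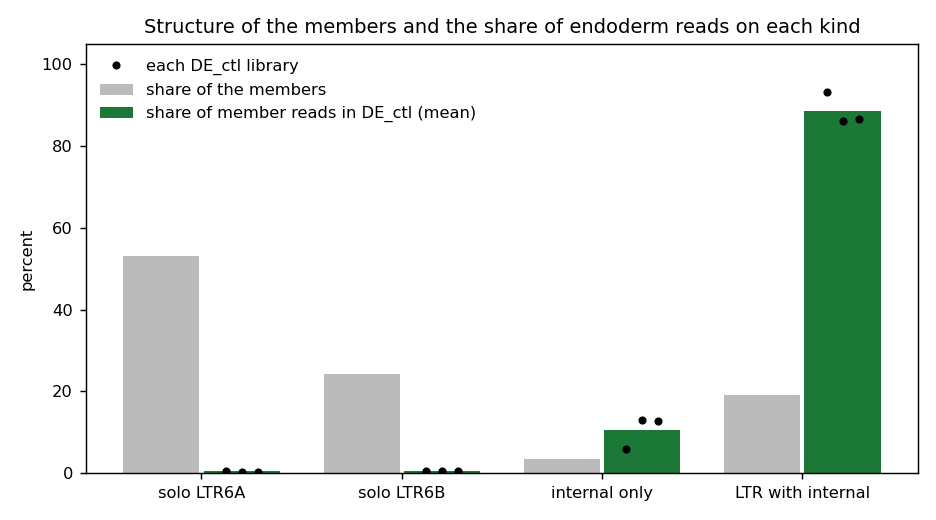
Reads of the members by structure (solo LTR6A, solo LTR6B, LTR with internal sequence, internal sequence alone) in each group. LTRs with internal sequence hold 796 RPM in DE_ctl against 3.32 RPM for solo LTR6A and 4.17 RPM for solo LTR6B.

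Within the proviruses, a handful of loci carried the endoderm signal. The 5 loci with most reads held 92.8, 91.8 and 91.2% of the members' reads in the 3 DE_ctl libraries, and 4, 5 and 5 loci were needed to reach 90%. In hESC, where reads were few, 13 and 11 loci were needed. In both FG_ctl libraries a single locus was enough.

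The first of these loci by mean level is a provirus on chromosome 18, chr18:47926821-47935100 on the plus strand, which lies between genes, 6283 bases past the end of SKA1, a gene for a kinetochore protein. It gave 0.255 and 0.621 RPM in hESC, 404, 147 and 211 RPM in DE_ctl, and 678, 293 and 330 RPM in DE_CRISPRi. In foregut it gave 472 and 276 RPM in FG_ctl and 78.9 and 119 RPM in FG_CRISPRi. Its first place in DE_ctl rests on library 1, as the DET1 and TNFSF14 loci were higher in libraries 2 and 3, and the DET1 locus was also higher in DE_CRISPRi libraries 2 and 3. Every differentiated library was above both hESC libraries, and the FG_ctl libraries lay within or above the range of DE_ctl. This provirus held 47.6, 16.9 and 21.5% of the members' reads in DE_ctl and 92.9 and 95.7% in FG_ctl.

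The second is a provirus within DET1, at chr15:89081365-89089461, where DET1 encodes an adaptor of a ubiquitin ligase. Its start and end segments both overlap an annotated exon. Both were tested only in the fit with exon-overlapping integrants, where reads cannot be told from a gene's. The provirus lies on the plus strand, opposite to DET1. It had 0 reads in both hESC libraries, 151, 211 and 227 RPM in DE_ctl and 355, 300 and 339 RPM in DE_CRISPRi. FG_ctl had 9.65 and 0.458 RPM, and FG_CRISPRi 0 and 0.336 RPM. All endoderm libraries were above all others, and the DE_CRISPRi libraries were all above the DE_ctl libraries.

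The third lies on chromosome 19 beside TNFSF14, which encodes the cytokine LIGHT, at chr19:6656146-6661734 on the minus strand. It is listed in pieces because young Alu elements interrupt it, and its start overlaps the last exon of TNFSF14 on the same strand. It had 0 reads in hESC, 108, 226 and 251 RPM in DE_ctl and 183, 266 and 279 RPM in DE_CRISPRi, then 11.6 and 3.58 RPM in FG_ctl and 3.11 and 5.96 RPM in FG_CRISPRi. Endoderm again stood apart from every other group. TNFSF14 itself had 0 reads in hESC and DE_ctl.

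The fourth, chr3:146122793-146129944, is a complete provirus with an LTR6B at each end. It lies on the minus strand within an intron of PLSCR2, a gene of the phospholipid scramblase family on the same strand. It had 0 reads in hESC, 106, 146 and 162 RPM in DE_ctl and 158, 148 and 195 RPM in DE_CRISPRi, and at most 0.404 RPM in any foregut library. PLSCR2 itself had 0 reads in hESC and DE_ctl. A transcribed pseudogene over the provirus on the same strand, ENSG00000241358, had 0 reads in hESC and 0.559, 1.90 and 1.59 RPM in DE_ctl (log2 7.85, SE 1.22, edgeR adjusted p = 1.36e-04), and 0 in foregut. The fifth, chr19:20472431-20482803 on the plus strand, has an LTR6A at each end and lies between the pseudogenes BNIP3P20 and ZNF826P. It had 0 reads in hESC, 18.9, 68.4 and 41.3 RPM in DE_ctl and 14.6, 29.9 and 48.5 RPM in DE_CRISPRi, and at most 2.57 RPM in the foregut libraries. Within each endoderm group its highest library was over 3 times its lowest.

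The loci did not share 1 order across the endoderm libraries. DE_ctl library 1 had the highest chromosome 18 value of its group and the lowest value at the DET1, TNFSF14, PLSCR2 and chromosome 19 loci. DE_CRISPRi library 1 likewise had the highest chromosome 18 value and the lowest at TNFSF14 and the chromosome 19 provirus, but the highest at DET1. Replicate numbers do not pair libraries between the groups, and what sets these libraries apart was not tested.

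Behind these 5 loci came proviruses of lower level. The one at chr19:35212838-35218692, 6368 bases from ZNF181, a zinc finger gene, had 4.98, 8.45 and 14.0 RPM in DE_ctl and 0 in hESC. One at chr3:164051797-164059685, which overlaps the MIR720 annotation, had 9.25, 13.9 and 16.2 RPM, and one at chr3:101350889-101360900 had 8.14, 11.2 and 11.2 RPM against 0.0850 and 0.0887 RPM in hESC. One at chr2:124443948-124449097 had 4.48, 4.04 and 4.82 RPM against 0 in hESC. All 4 had at most 1.48 RPM in any foregut library.

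Tested one integrant at a time between DE_ctl and hESC, 58 of the 409 members had enough reads for the test, and 28 were higher and 1 lower by more than 2-fold at a 0.05 limit on the adjusted p (edgeR's quasi-likelihood test over 37289 integrants), where 4.56% of all integrants were called and 3.13% were higher. Many members entered the test only through their reads in endoderm, so that the share that rose is not support for the family as a whole. When integrants that overlap an exon were left out, as in the main fit, 25 members were tested and 11 were higher and 1 lower, beside 3.78% called and 2.61% higher among 31441 integrants. The median log2 fold change of the 25 was 4.80. In the fit with exon-overlapping integrants it was 4.37 over the 58 members and −1.08 over all 37289 integrants. Of the 28 higher members, 21 were LTRs with internal sequence, 2 were internal pieces, 2 were solo LTR6A and 3 were solo LTR6B.

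By segment, the largest rises were those of the loci above. The end of the chromosome 18 provirus rose 547-fold over hESC (log2 9.17, SE 0.555, adjusted p = 1.90e-57 by edgeR), from 0.255 and 0.621 RPM to 381, 140 and 198 RPM. Where hESC had no read, only a bound can be given, set by 3 reads per hESC library. It was at least 1250-fold for the end of the DET1 provirus, 1061-fold for the PLSCR2 provirus, 630-fold for the end of the TNFSF14 provirus and 502-fold for one of its inner pieces. The bound was 329-fold for the chromosome 19 provirus, 101-fold for that over MIR720 and 70.2-fold for that near ZNF181. The provirus at chr3:101350889-101360900, with 2 reads in each hESC library, rose by a log2 of 6.85 (SE 0.649, adjusted p = 2.85e-23).

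**Figure D3:**
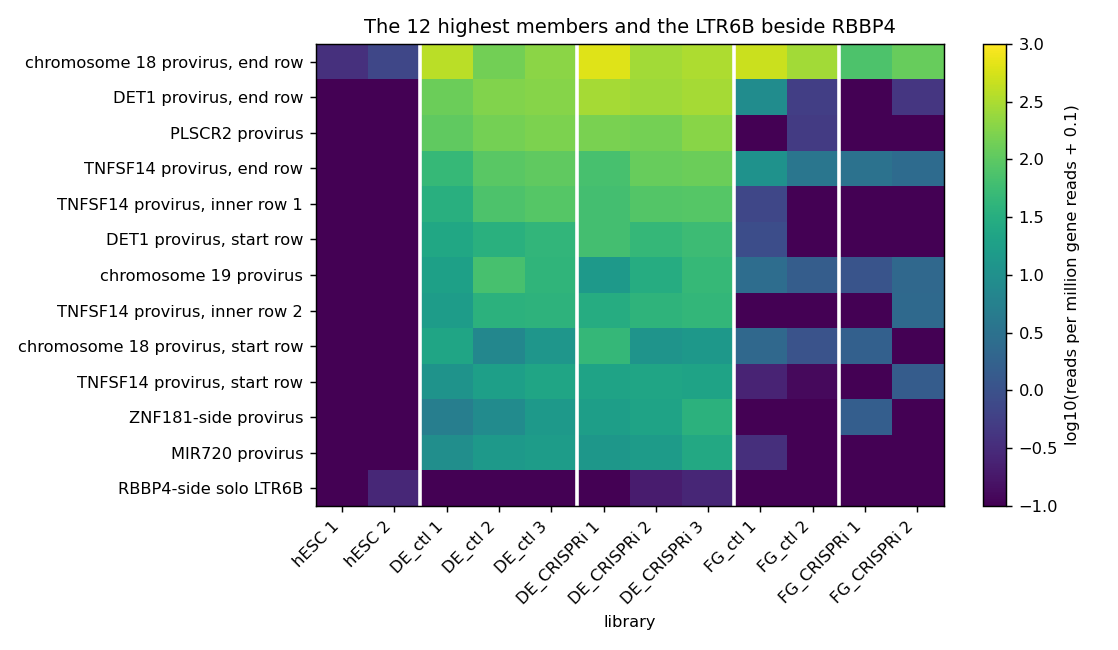
RPM of the 12 members with the highest mean level, in each library (log axis), coloured by group. In hESC only the end of the chromosome 18 provirus has reads, and in FG_ctl it stays at 470 and 275 RPM while the PLSCR2 provirus has 0 and 0.404 RPM.

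Solo LTRs rose from nothing to low levels. The highest, an LTR6B at chr5:146421392-146421947 in an intron of PPP2R2B, had 0 reads in hESC and 1.47, 2.28 and 2.38 RPM in DE_ctl. A solo LTR6A at chr9:115837692-115838339 had 3.25, 0.186 and 0.489 RPM in DE_ctl, so that 1 library carries its mean. The others were an LTR6A at chr19:46773564-46774113 (0.564 ± 0.122 RPM, SD, n = 3), an LTR6B at chr21:44356555-44357110 (0.544 ± 0.166 RPM) and an LTR6B at chr7:38371844-38372400 in TRG-AS1 (0.433 ± 0.190 RPM). Each of these 5 was below the lowest DE_ctl value of the 5 loci with most reads by a wide margin. The solo LTR6B near RBBP4 at chr1:33109510-33110065, which the study targeted in an experiment not analysed here, was not among them. It had 8 reads in all 12 libraries, 4 of them in hESC library 2 and 0 in DE_ctl.

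Other members did not rise. The 1 member that was lower in DE_ctl, at chr7:29675988-29684927 within the pseudogene ZNRF2P2, had 0.637 and 1.20 RPM in hESC and 0, 0.0929 and 0 RPM in DE_ctl (log2 −4.44, SE 0.998, adjusted p = 4.99e-04). The highest member in hESC, a provirus with LTR6B at each end at chr4:4031968-4039301, had 1.57 and 1.46 RPM there and 1.98, 2.09 and 3.11 RPM in DE_ctl (log2 0.73, adjusted p = 0.602), and was lower in FG_ctl, where it had no read.

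Within a provirus, reads lay more toward its end than its start. The chromosome 18 provirus is listed as a start segment (chr18:47926821-47930564) and an end segment (chr18:47931542-47935100). Per kilobase the start had 5.62, 4.70 and 6.04% of the level of the end in the DE_ctl libraries. In the TNFSF14 provirus the start had 16.0, 12.8 and 14.1% of the level of the end, and in the DET1 provirus between 36.9 and 44.6%. In no endoderm library of these 3 proviruses did the start reach the level of the end.

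In FG_ctl the ratio was lower than in endoderm for all 3 proviruses, in each library with at least 50 reads in the end segment. There the start of the chromosome 18 provirus had 0.440 and 0.326% of the level of the end per kilobase, and that of the TNFSF14 provirus 0.939 and 0.505%, all below the DE_ctl values of the same provirus, although 2 libraries against 3 cannot give an exact permutation p below 0.2. The TNFSF14 values rest on 5 and 1 reads in the start segment. For the DET1 provirus only FG_ctl library 1 had enough reads, with a ratio of 17.5% from 26 start and 289 end reads. In DE_CRISPRi the ratio on chromosome 18 was 6.99, 3.96 and 4.10%, which overlaps DE_ctl. FG_CRISPRi did not follow FG_ctl throughout: the chromosome 18 ratio was 1.93 and 0%, and the TNFSF14 ratio was 0% in library 1 and 37.3% in library 2, from 28 and 50 reads, above every endoderm value of that provirus. The libraries were made from polyadenylated RNA, and the part of RNA quality in these ratios was not tested.

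**Figure D4:**
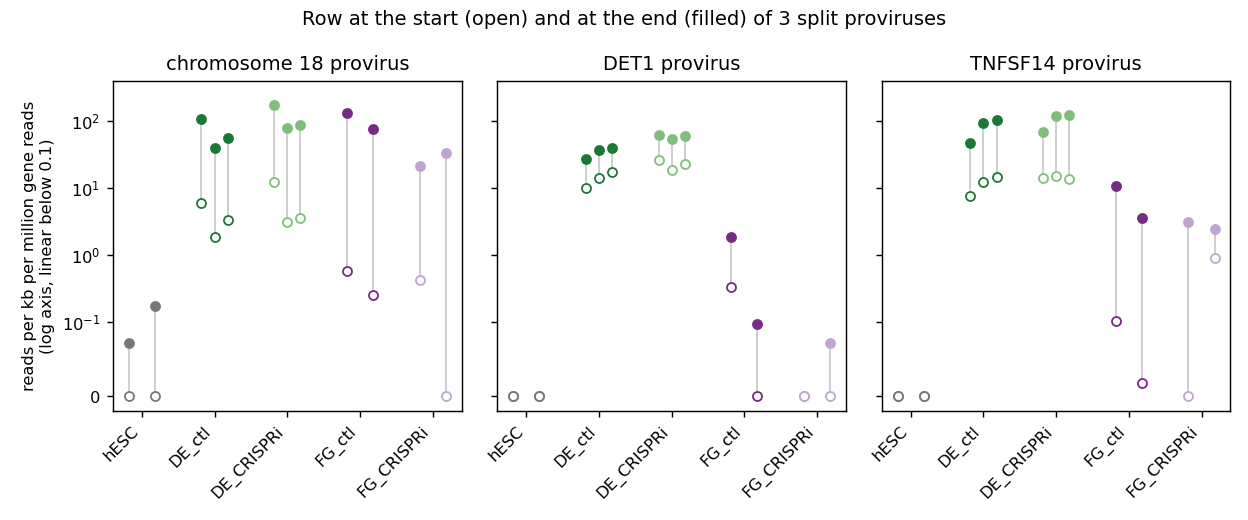
Level of the start segment as a percent of the level of the end segment, per kilobase, for the chromosome 18, DET1 and TNFSF14 proviruses in each library with at least 50 reads in the end segment. On chromosome 18 the DE_ctl libraries sit between 4.70 and 6.04% and the FG_ctl libraries at 0.440 and 0.326%.

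An element of the targeted family sits inside the DET1 provirus. The stretch chr15:89083783-89084750, which splits the provirus into its segments, is an LTR5_Hs copy. It had 0.509, 0.650 and 0.855 RPM in DE_ctl and 1.08, 0.509 and 0.863 RPM in DE_CRISPRi, with no reads in hESC or foregut. The level of this copy therefore overlapped between the endoderm groups, and it was far below that of the provirus on either side.

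In endoderm no member was called for the sgRNA. By edgeR, 0 of 36 members not overlapping exons were called, with 2 at an unadjusted p under 0.05, beside 0.0254% of all integrants called. With exon-overlapping members included, 0 of 71 were called and 10 had an unadjusted p under 0.05, beside 0.0313% called. On this larger set voom with limma called 1 member and DESeq2 called 0. The members' median log2 difference was 0.79 over the 36. Over the 71 it was 0.65, against 0.14 over all 28741 integrants of that fit. Library sizes taken from TE reads shift the values of the 71 by a median of −0.15.

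The values themselves leaned upward. The members' sum was 1139 to 1475 RPM in DE_CRISPRi and 848 to 979 RPM in DE_ctl, without overlap. At the level of names the differences were 0.58 for HERVS71-int, 0.64 for LTR6A and 0.59 for LTR6B on the log2 scale (edgeR adjusted p = 0.460, 0.527 and 0.527), with 0 of 1043 names called. Among the 12 members of highest mean level, the largest difference was at the provirus near ZNF181, with 17.3, 21.0 and 37.4 RPM in DE_CRISPRi against 4.98, 8.45 and 14.0 RPM (log2 1.47, SE 0.364, adjusted p = 0.105 by edgeR). The end of the DET1 provirus had a log2 difference of 0.79 (SE 0.330, adjusted p = 0.656) and the end of the chromosome 18 provirus 0.84 (SE 0.365, adjusted p = 0.635). The chromosome 19 provirus went the other way, at −0.46 (adjusted p = 0.656), and its groups overlapped.

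Sums of some tissue markers also differed. The definitive endoderm markers summed to 6214 to 6731 RPM in DE_CRISPRi against 5464 to 6068 RPM in DE_ctl, most of it in CER1, with means of 4513 and 3849 RPM, while the list's median log2 difference was 0.07. The 6 mesoderm markers summed to 85.6 to 112 RPM against 45.8 to 70.2 RPM, with edgeR adjusted p of at least 0.982 and at least 0.199 for the single genes of these lists, where 0.0343% of genes were called. The 6 pluripotency markers had a median log2 difference of −0.65 and adjusted p of at least 0.467, with sums of 1055 to 1278 RPM against 1204 to 1784 RPM. Of the mesoderm list, HAND1 and FOXF1 were at 0 in hESC and at 16.8 and 0.971 RPM in DE_ctl, and MSGN1 was at 0 or near it in all endoderm libraries. The part of cell composition in the members' difference was not tested.

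From endoderm to foregut the family split. Among members not overlapping exons, 8 of 34 were lower in FG_ctl than in DE_ctl and 1 was higher by edgeR, beside 5.27% of all integrants called, 1.55% lower and 3.72% higher. With exon-overlapping members included, 25 of 71 were lower and 2 higher, beside 6.08% called, 1.97% lower and 4.11% higher. The median log2 difference was −4.13 over the 34 members. Over the 71 it was −4.61, against 3.82 over all 51321 integrants of that fit. Library sizes taken from TE reads shift the values of the 71 by a median of −1.30. Markers of other cell types moved at this step too. The trophoblast and amnion markers summed to 12.1 to 14.2 RPM in DE_ctl and 71.5 to 127 RPM in FG_ctl, with 3 of 5 higher, among them KRT7 at 0.0958 and 64.5 RPM, and the endothelial gene CDH5 went from 0.0958 to 30.7 RPM. Their part in the members' differences was not tested.

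The proviruses in DET1, PLSCR2 and beside TNFSF14 fell. The PLSCR2 provirus fell by 9.41 on the log2 scale (SE 0.999, adjusted p = 1.75e-18), to 0 and 0.404 RPM. The end of the DET1 provirus fell by 5.06 (SE 0.861, adjusted p = 2.99e-07), to 8.85 and 0.458 RPM, and the end of the TNFSF14 provirus by 3.47 (SE 0.698, adjusted p = 3.79e-05), to 10.9 and 3.55 RPM. The chromosome 19 provirus fell by 4.40 (adjusted p = 3.13e-08). An inner piece of the TNFSF14 provirus, chr19:6657436-6657902, had no read in FG_ctl, where DE_ctl was at least 353-fold higher.

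The end of the chromosome 18 provirus did not follow. It had 470 and 275 RPM in FG_ctl against 381, 140 and 198 RPM in DE_ctl, and the groups overlapped (log2 0.67, SE 0.751, adjusted p = 0.467 by edgeR). With library sizes from TE reads its difference was −1.53, and without FG_ctl library 2 it was 1.13 and passed the test (adjusted p = 6.65e-05). Its start segment, in contrast, fell by 3.12 (SE 0.629, adjusted p = 3.23e-05), from 22.5, 6.92 and 12.6 RPM to 2.18 and 0.942 RPM.

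At the level of names this split follows the chromosome 18 provirus, not LTR6A against LTR6B. The TNFSF14 and chromosome 19 proviruses also start with an LTR6A, and both fell. The chromosome 18 provirus, whose end did not fall, held 92.9 and 95.7% of all member reads in the FG_ctl libraries. LTR6B fell by 5.46 on the log2 scale between DE_ctl and FG_ctl (edgeR adjusted p = 1.39e-05), to 8.43 ± 6.93 RPM (SD, n = 2). With single-name integrants alone, this difference was −0.80 and did not pass (adjusted p = 0.192). LTR6A, the name of the chromosome 18 provirus, differed by −0.08 (adjusted p = 0.867; 0.23 when exon-overlapping integrants were left out), at 389 ± 148 RPM in FG_ctl, and HERVS71-int, which both share, by −1.15 (adjusted p = 0.0142), where 32.7% of 1052 names were called. The call for HERVS71-int was lost with the replicate block (adjusted p = 0.0995), without any 1 of the 3 DE_ctl libraries (0.0695, 0.0851 and 0.0972) and without exon-overlapping integrants (0.251). The 2 members that were higher in foregut were an LTR6A provirus at chr10:54706149-54715870, with 0 reads in DE_ctl and 0.797 and 0.861 RPM in FG_ctl, and a solo LTR6B on chromosome 8.

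In foregut 1 member was called for the sgRNA, the end of the chromosome 18 provirus. It had 470 and 275 RPM in FG_ctl and 77.3 and 119 RPM in FG_CRISPRi, without overlap (log2 −1.95, SE 0.0658, adjusted p = 7.40e-187 by edgeR). It was 1 of 21 members tested, or of 39 with exon-overlapping members, beside 0.00595% and 0.00713% of all integrants. The call depends on the fit. DESeq2 gave an adjusted p of 0.666, the fit without FG_CRISPRi library 1 gave 0.686, and 2 libraries against 2 cannot give an exact permutation p below 0.333. With all 12 libraries in 1 fit the adjusted p was 7.64e-09. The names that hold this provirus fell by 1.75 (LTR6A) and 1.80 (HERVS71-int) on the log2 scale without passing the test (adjusted p = 0.451 and 0.436), beside 0.0976% of 1025 names called, and both passed it with voom, with DESeq2, with TE library sizes and with all 12 libraries in 1 fit. In the same libraries, LTR5B summed to 9.29 to 12.4 RPM in FG_ctl and 4.28 to 5.59 RPM in FG_CRISPRi, while LTR5_Hs had 9.10 and 8.75 RPM against 4.43 and 10.9 RPM and overlapped. LTR5A summed to 54.5 to 57.57 RPM in FG_ctl and 59.5 to 62.95 RPM in FG_CRISPRi. Of the marker lists, HBE1, an embryonic globin, was the 1 gene called, with 16.2 and 13.7 RPM in FG_ctl and 0.471 and 0 RPM in FG_CRISPRi (log2 −5.72, edgeR adjusted p = 1.60e-10), beside 0.165% of genes. GATA4 had 211 and 206 RPM against 71.1 and 135 RPM (log2 −1.04, adjusted p = 0.358). The part of cell composition in the provirus's difference was not tested. The sgRNA effect itself differed between foregut and endoderm at 3 of 45 members not overlapping exons, beside 0.0162% of all integrants, and at 7 of 84 with exon-overlapping members (beside 0.0577%).

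Genes beside the loci changed in both directions in endoderm. SKA1, left of the chromosome 18 provirus, rose from 9.43 to 21.8 RPM (log2 1.29, SE 0.288, adjusted p = 0.00214). C3, the central component of complement, which lies 15981 bases from the TNFSF14 provirus, rose from 0.430 to 59.1 RPM (log2 7.13, adjusted p = 7.00e-09). DET1 fell from 8.10 to 3.39 RPM (log2 −1.19, adjusted p = 0.00270), and ZNF181 from 13.6 to 5.19 RPM (log2 −1.32, adjusted p = 0.00105). Both SKA1 and C3 were lower again in FG_ctl, by −2.55 (adjusted p = 0.0121) and −2.51 (adjusted p = 2.72e-04) on the log2 scale.

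Over the whole family, 318 protein-coding genes start within 50 kb of a member and 257 of them were tested. Of these, 73 (28.4%) were higher and 14 lower in DE_ctl than in hESC, where 15.3% of all protein-coding genes were higher and 13.9% lower. Members without any read are included in that count. Near the members that rose, 14 of 19 genes were tested, with 6 higher and 3 lower. The higher ones were SKA1 (log2 1.29), HIF3A (1.88), ERVH48-1 (5.17), RPL24 (1.19), SPATA9 (6.24) and RHOBTB3 (4.37), and the lower ones DET1, ZNF181 and PPP2R2B (−3.02). ERVH48-1, which encodes the retroviral envelope protein suppressyn, lies near the solo LTR6B on chromosome 21, and PPP2R2B, which fell, holds the solo LTR6B that rose most. RBBP4, a chromatin protein of several histone-modifying complexes, had 205 ± 45.8 RPM (SD, n = 2) in hESC and 301 ± 31.7 RPM (SD, n = 3) in DE_ctl (log2 0.64, SE 0.186, adjusted p = 0.0127), which is under the 2-fold limit.

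Among endoderm factors, 10 of the 12 tested were higher in DE_ctl than in hESC, beside 26% of genes called and 14.2% higher. GATA4, GATA6 and SOX17 had 0 reads in hESC and 239, 366 and 241 RPM in DE_ctl, and EOMES rose from 4.23 to 600 RPM. MIXL1, GSC, FOXA2, HHEX, SMAD3 and FOXH1 also rose, while FOXA1 and SMAD2 did not pass. In FG_ctl 2 were higher and 7 lower than in DE_ctl, beside 29% of genes called. FOXA1 went from 6.53 to 205 RPM and EOMES from 600 to 1.55 RPM.

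Of the 12 silencing genes tested, 0 were higher and 2 lower in endoderm, beside 26% of all genes called in either direction and 14.2% higher. DNMT3B, a de novo DNA methyltransferase, fell from 1212 to 211 RPM (log2 −2.45, adjusted p = 7.34e-08), and MORC2, an ATPase that works with the HUSH silencing complex, had a log2 change of −1.03 (adjusted p = 7.03e-04). TRIM28 changed by −0.68 (adjusted p = 0.00562), under the 2-fold limit. In foregut 3 were lower than in DE_ctl, beside 29% of all genes called in either direction. They were DNMT3B by −3.43, the maintenance methyltransferase DNMT1 by −1.33 and ATF7IP, a partner of SETDB1, by −1.13. SLC16A1, the receptor of the HERV-T envelope, had 480 RPM in hESC and 498 RPM in DE_ctl (log2 0.12, adjusted p = 0.668), and was lower in FG_ctl by −1.82 (adjusted p = 8.63e-04).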

How the data were processed

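Poly(A)-selected, stranded RNA-seq was done on 12 bulk libraries of human embryonic stem cells and their derivatives. The authors aligned reads to hg19 with HISAT2, kept unique reads and counted them with featureCounts on a joint annotation of genes and TEs, in which fragments of an integrant were merged. The files as deposited by the authors hold unnormalized read counts for each gene and each integrant, with coordinates on GRCh37 and no strand column, and the strand setting of the counting is not given in the sources used here. Single-nucleus data of the series were not used here. The members were all integrants named LTR6A, LTR6B or HERVS71-int. Members, gene lists and tests were chosen with earlier results of these data known.

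Counts were divided by gene reads of the library (RPM). Tests used edgeR 4.0.16 (quasi-likelihood F test, with TMM factors and library sizes taken from genes) in R 4.3.3 on all integrants with at least 3 reads in a library, fitted on the groups of each comparison, 2-sided, with Benjamini-Hochberg adjustment over all integrants tested. A call needs more than a 2-fold change and an adjusted p under 0.05; for sums by name the adjusted p alone. The main fit left out integrants that overlap a GENCODE exon, as reads there cannot be told from a gene's; the second included them. Alternatives used voom with limma 3.58.1, DESeq2 1.42.0, other library sizes, filters and samples. Strand was set by aligning members to each other with blastn 2.17.0 and by the primer binding site. Sequences were read from GRCh37 with pysam 0.24.0.

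Named integrants were the 12 with the highest mean RPM over the 12 libraries, the 5 with the smallest p in each comparison, and the LTR6B near RBBP4. Named genes were RBBP4, genes over or next to a named integrant, and the lists. Other integrants and genes named, among them the solo LTRs that rose and the genes near members that rose, were chosen after their values were seen. In simulated data, calls recovered 15% of integrants changed by 1.5 and 72% of those changed by 3 on the log2 scale between hESC and DE_ctl (31441 integrants), 23% and 82% between the endoderm groups, 8% and 68% from endoderm to foregut, and 1% and 48% between the foregut groups. Some list genes and LTR sequences are not reported here.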

Additional observations from a re-analysis of the deposited data

Results flagged for a closer look

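The effect of the sgRNA differed between foregut and endoderm at 6 members by edgeR's test of the difference itself, of which 3 were among the 45 not overlapping exons (0.0162% of all integrants were called) and 7 were called of 84 with exon-overlapping members included (0.0577%). Differences are the log2 effect in foregut minus that in endoderm. The end of the chromosome 18 provirus (chr18:47931542-47935100) had −2.80 (adjusted p = 2.90e-06), from 0.84 in endoderm and −1.95 in foregut. The start and end of the DET1 provirus had −7.05 (adjusted p = 1.26e-06) and −5.82 (adjusted p = 2.51e-11), beside at most 9.65 RPM for the whole provirus in any foregut library. Inner pieces of the TNFSF14 provirus went in opposite directions, with 7.18 (adjusted p = 7.81e-10) at chr19:6657436-6657902 and −6.22 (adjusted p = 0.00258) at chr19:6658211-6659352. The former had 0 reads in both FG_ctl libraries and in FG_CRISPRi library 1, and 2.21 RPM in FG_CRISPRi library 2, while the latter had 0.613 RPM in FG_ctl library 1 and 0 in the other foregut libraries. The provirus near ZNF181 (chr19:35212838-35218692) had 5.81 (adjusted p = 0.00169), with 1.48 RPM in FG_CRISPRi library 1 and 0 in the other foregut libraries. The seventh call of the larger fit was the PLSCR2 provirus, at −5.49 with an adjusted p of 0.0696 in the fit without exon-overlapping integrants. At 4 of these 6 members, the DET1 start included, only 1 of the 4 foregut libraries had reads.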

How the results depend on the processing

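The rise in endoderm held under all alternatives run, although the number of calls moved. Called in either direction were 12 members, 23 when miRNA exons were not counted as exons and 29 with all exon-overlapping members. Each of these counts includes 1 lower member. With all 12 libraries in 1 fit the 29 became 19, all of them higher. Without each replicate in turn the counts were 11 and 25 to 28. For the sgRNA in endoderm, 0 were called, 1 by unadjusted p and a fold over 2; with exon-overlapping members, 1 by voom, 1 with the replicate block, 4 by unadjusted p, and 0 to 1 without 1 replicate. The foregut step was the least stable: 9 calls became 5 by DESeq2, 15 with TE library sizes, 22 without miRNA exons and 27 with exons, and 7 to 21 without 1 replicate; the 27 became 12 by DESeq2, 17 with the replicate block, and 21 to 42 without 1 replicate. The 1 call for the sgRNA in foregut became 0 by DESeq2, 3 with all 12 libraries and 0 to 1 without 1 replicate; with exons, 0 by DESeq2, 6 with all 12 libraries, 2 by unadjusted p, and 0 to 1 without 1 replicate. Calls for the difference of the sgRNA effect went from 3 to 1 by voom and to 7 with exons, and these 7 to 2 by voom.

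By name, the foregut step of LTR6A was −0.921 with TE library sizes (now past the threshold), 0.225 without exon-overlapping integrants, and −0.651 to 0.382 without 1 replicate (0.096 without DE_ctl library 1). That of LTR6B was −0.801 with single-name integrants alone, where its call was lost. That of HERVS71-int was −1.144 with the replicate block, −0.557 without exon-overlapping integrants and −1.733 to −0.683 without 1 replicate, and lost its call with the block, without exon-overlapping integrants and without any 1 DE_ctl replicate. The sgRNA effect in foregut passed for LTR6A by voom (−1.677), DESeq2 (−1.736), TE library sizes (−2.141), all 12 libraries (−1.748) and the replicate block (−1.681), and for HERVS71-int likewise (−1.722, −1.783, −2.186, −1.795 and −1.726); it was 1.199 and 1.456 with single-name integrants alone. For LTR6B it was −1.512 to 0.565 without 1 replicate. Silencing genes called in endoderm were 1 to 3 without 1 replicate. Without exon-overlapping integrants, shares were taken by single integrant and not by locus, so that both the set and the unit differ. On this count 90% of reads took 6 integrants in hESC and 1.5 in FG_CRISPRi. The first integrant held 40.351% in hESC, 48.034% in DE_CRISPRi, 96.848% in FG_ctl and 89.598% in FG_CRISPRi.

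Single values that reversed, none past the threshold in the fit as reported, were the foregut step of the chromosome 18 end with TE library sizes (−1.529) and, as ranges without 1 replicate each, the chromosome 18 start for the sgRNA in endoderm (−0.165 to 1.374) and in foregut (−8.631 to 0.174, and 0.017), the chromosome 19 provirus for the sgRNA in endoderm (−0.928 to 0.022) and in foregut (−0.826 to 0.209), an inner piece of the TNFSF14 provirus for the sgRNA in endoderm (−0.022 to 0.591), its start in foregut (−4.664 to 4.367), SLC16A1 in differentiation (−0.072 to 0.235) and RBBP4 for the sgRNA in endoderm (−0.023 to 0.324) and in foregut (−0.202 to 0.657). The causes were not tested. No label says that replicate numbers mark a shared origin, and they were not taken to pair libraries: correlations of deviations were 0.035 and 0.036 for hESC with DE_ctl, −0.030 to 0.033 between the endoderm groups, 0.129 and 0.113 for DE_ctl with FG_ctl, where only 2 numbers are shared, and −0.108 for both foregut pairs, where crossing the numbers in the replicate block again gave 1 call. Over the other results, 349 values were unchanged. For tested values this means the same direction and side of the threshold. For counts it means a change within a set factor, and for shares of reads a change within the SD of the group. Depth limits the hESC libraries, where 3 reads are 0.127 to 0.133 RPM.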
